A study of Mus musculus with 23 samples.

Results

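A set of 1877 open chromatin regions of the mouse maxillary mesenchyme had no peak in any E10.5 list, a peak in at least 1 E11.5 list and a peak in at least 2 E12.5 lists. They were chosen by the authors' peak calls: peaks of 9 lists that overlapped by at least 1 bp on the 19 autosomes and chromosome X were merged into 118102 regions, and the rule kept those absent at embryonic day 10.5 (E10.5) and recurrent later. They make up 1.59% of all merged regions and 12.9% of the 14562 regions that 3 to 6 lists called, the range that the rule allows. Because all 3 stages entered the rule, the numbers of calls, folds and ranks by stage are given as descriptions, with no test.

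Open chromatin was mapped by ATAC-seq, in which the Tn5 transposase cuts accessible DNA and inserts sequencing adapters there. The tissue was maxillary prominence mesenchyme of wild-type C57BL/6 embryos at E10.5, E11.5 or E12.5, with the ectoderm peeled away after Dispase treatment of the embryos. Each stage had 3 samples with 1 list each, made from 1 to 4 library runs, and no other genotype or treatment was part of the design. The labels do not state how many embryos were pooled per sample or name any batch.

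The maxillary prominences form the upper jaw, the sides of the upper lip and the palatal shelves, and their mesenchyme comes largely from the cranial neural crest. Open chromatin lies at promoters, which are often open in many tissues, and at distal elements such as enhancers, which tend to be open in particular tissues and stages. A region that appears as development goes on can be a newly opened element of the same cells or an element of a cell type that becomes more frequent. In a bulk sample these cannot be told apart, and neither can be told apart from a peak that was too weak to be called at the earlier stage.

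On these chromosomes an E10.5 list held 14886 to 19095 peaks, an E11.5 list 5682 to 41457 and an E12.5 list 19139 to 50361. They give no read counts, so the sequencing depth is unknown. Of 12 mesenchyme marker genes (among them Prrx1, Twist1, Msx1 and Dlx2), 2 to 5 had a peak within 1 kb of a gene boundary in the E10.5 lists, 0, 6 and 7 in the E11.5 lists and 5 in each E12.5 list. Of 10 epithelial markers it was 0 to 1, 0 to 2 and 0 to 2 at the 3 stages. In E11.5 sample 1, the shortest list, 0 of the mesenchyme, epithelial, endothelial, muscle and blood markers had such a peak, and the label could not be checked in it.

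Most of the 1877 regions lie away from gene starts, where the reference used here holds no sequence. Transcription starts of the RefSeq promoter table (GRCm38.p6, the assembly that mm10 is built on) lay in 102 of them. Of 10 regions described singly below, which all 3 E12.5 lists and 2 or 3 E11.5 lists called, 5 held such a start. The promoter windows of 4 of these, 250 bases before to 50 after the start, are shown as examples. A window can run past its region: that of B4gat1 begins at 5038576 and its region at 5038732. CG dinucleotides, the sites of DNA methylation, stand in capitals. The window of Cep131, which encodes a protein of the centrosome and the ciliary base, is chr11:120086778-120087077 on the minus strand, with 29 CG sites. Those of Phf23, which encodes a PHD finger protein, at chr11:69995516-69995815 on the plus strand and of Pelp1, a coregulator gene of nuclear receptors, at chr11:70409982-70410281 on the minus strand hold 17 and 30. The window of B4gat1, which encodes a glucuronyltransferase acting on alpha-dystroglycan, lies at chr19:5038576-5038875 on the plus strand and holds 29; its region also holds the start of Gm30581 on the other strand.
Cep131: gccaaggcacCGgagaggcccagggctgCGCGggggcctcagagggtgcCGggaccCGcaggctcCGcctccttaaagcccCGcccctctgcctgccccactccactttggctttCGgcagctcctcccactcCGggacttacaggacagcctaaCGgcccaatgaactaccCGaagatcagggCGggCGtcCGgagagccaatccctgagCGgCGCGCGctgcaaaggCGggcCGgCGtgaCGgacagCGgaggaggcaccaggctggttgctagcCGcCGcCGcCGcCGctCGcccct
Phf23: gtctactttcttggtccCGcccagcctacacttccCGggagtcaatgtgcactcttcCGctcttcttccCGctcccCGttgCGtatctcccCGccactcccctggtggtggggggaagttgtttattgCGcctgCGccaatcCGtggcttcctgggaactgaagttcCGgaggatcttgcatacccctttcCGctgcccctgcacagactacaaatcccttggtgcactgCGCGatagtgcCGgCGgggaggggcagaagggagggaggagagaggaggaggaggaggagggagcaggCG
Pelp1: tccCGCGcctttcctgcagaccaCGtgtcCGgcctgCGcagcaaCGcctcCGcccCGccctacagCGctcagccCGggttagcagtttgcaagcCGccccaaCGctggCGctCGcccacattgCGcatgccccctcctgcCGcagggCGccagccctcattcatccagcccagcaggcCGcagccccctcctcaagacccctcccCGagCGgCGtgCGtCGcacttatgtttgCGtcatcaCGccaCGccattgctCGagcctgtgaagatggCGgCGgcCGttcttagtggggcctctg
B4gat1: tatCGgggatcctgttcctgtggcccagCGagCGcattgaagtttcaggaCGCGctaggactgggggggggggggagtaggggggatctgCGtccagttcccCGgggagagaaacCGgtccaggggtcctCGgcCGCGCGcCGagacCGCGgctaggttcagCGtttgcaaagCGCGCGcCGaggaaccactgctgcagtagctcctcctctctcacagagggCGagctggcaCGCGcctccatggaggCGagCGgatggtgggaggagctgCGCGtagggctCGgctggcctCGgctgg

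The windows shown have a GC content of 71.3% (Cep131), 62% (Phf23), 68.7% (Pelp1) and 68.3% (B4gat1), and the fifth, of the phosphohistidine phosphatase gene Phpt1, 60.7%. Over all 117 promoter windows with their start in the 1877 regions the median was 63.7%. It was 61.3% for the 4675 windows with their start in other regions called by 3 to 6 lists. For all 32619 windows on these chromosomes it was 53%. Windows were assigned by their start alone, so GC content, CG ratio and motifs include bases outside the called regions. The ratio of observed to expected CG sites had a median of 0.729, against 0.783 and 0.387 in the same sets. The promoters in the set thus had a median GC content close to that of other recurrent regions and a lower median CG ratio. Of the windows in the set 34.2% held GCCNNNGGC, the motif of the Tfap2 factors of neural crest, on either strand, against 25.9% of those in other regions called by 3 to 6 lists and 16.7% of all windows. For CCGGAAG, an ETS factor motif, the shares were 14.5%, 20.1% and 8.92%, and for CCACCC, a KLF and Sp factor motif, 41.0%, 35.8% and 31.6%. TGACAG (Meis) was in 10.3%, 15.4% and 18.9%, ACAAAG (Sox and TCF) in 10.3%, 12.9% and 18.7%, and GGAATG (TEAD) in 6.84%, 11% and 14.6%. CANNTG (E-box) was in 65.8%, 63.1% and 72.3%, and TGANTCA (AP-1) in 5.98%, 3.74% and 7.85%. Rarer were AACCACA (Runx) in 4.27%, 3.25% and 5.29%, TAATTA (homeodomain) in 2.56%, 1.88% and 5.25%, TGTTTAC (forkhead) in 2.56%, 2.27% and 3.67%, and the CTCF motif in 0.855%, 2.72% and 2.44%. These matches are letters in a window and not shown binding sites; GC content differs between the sets, and its part in the shares was not tested.

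A single E11.5 list carried nearly the whole set. E11.5 sample 3 called 1828 of the 1877 regions (97.4%), sample 2 called 240 (12.8%) and sample 1 called 46 (2.45%). Of the E12.5 lists, sample 2 called 1790 (95.4%), sample 1 called 1439 (76.7%) and sample 3 called 772 (41.1%). These orders follow the number of regions that the lists called in all, 38163, 24552 and 5496 for the E11.5 lists and 48768, 25349 and 18312 for the E12.5 lists. The most frequent pattern, E11.5 sample 3 with E12.5 samples 1 and 2, accounted for 1005 regions (53.5%), and the next, E11.5 sample 3 with E12.5 samples 2 and 3, for 339 (18.1%). Only 247 regions were called by all 3 E12.5 lists, 24 of them also by 2 E11.5 lists and 5 by all 3. Without E11.5 sample 3 the rule kept 240 regions, without E12.5 sample 1, 2 or 3 it kept 685, 314 and 1343, and without E11.5 sample 1 or 2 it kept 1871 and 1841.

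**Figure D1:**
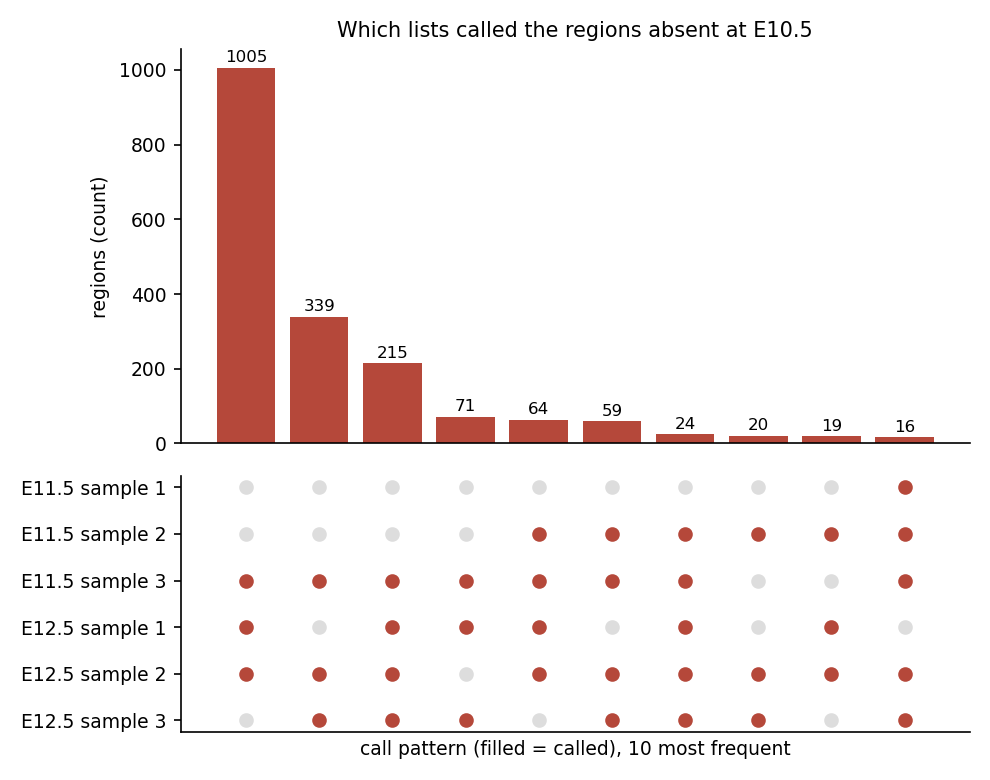
Number of regions absent at E10.5 (y axis, count) for the 10 most frequent combinations of lists, with filled dots below each bar for the E11.5 and E12.5 lists that called them. The 4 tallest bars (1005, 339, 215 and 71 regions) all have E11.5 sample 3 as their only E11.5 list.

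The set was set against a number expected from how readily each list called regions, given how many regions each number of lists called. In an additive model of calling odds, where each list shifts the odds of all regions alike, 2597 regions were expected to meet the rule, and the 1877 observed are 0.723 times that number. The mirror rule (absent at E12.5, called in at least 1 E11.5 list and in 2 or 3 E10.5 lists) was met by 1139 regions, 0.964% of all, against 377 expected, a ratio of 3.02. With odds fitted separately within 1 kb of gene boundaries and away from them the ratios were 0.810 and 1.74. Observed and expected numbers both come from the calls that the rule used, so the ratios are descriptions with no test.

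Close to the rule's limits, 4164 regions had 1 E12.5 list in place of 2 or 3, 5269 had no E11.5 list, and 1589 met the later calls but had 1 E10.5 list. The median percentile of their folds in the E11.5 and E12.5 lists was 41.5, 50.7 and 58.5, against 52.3 for the 1630 regions just inside with 2 E12.5 lists and 52.5 for the 1677 with 1 E11.5 list. Another 6702 regions met the later calls and were called by 1 or more E10.5 lists. The nearest region called in an E10.5 list was a median of 12.5 kb away, and for 284 regions (15.1%) it lay within 1 kb. Leaving those out kept 1593 regions.

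The regions lay mostly far from gene boundaries, the annotated start or end of a protein-coding gene. Of the 1877, 236 (12.6%) had their strongest summit within 1 kb of a boundary, 847 (45.1%) lay inside a gene farther from its ends, 163 (8.68%) outside genes at 1 to 10 kb, 468 (24.9%) at 10 to 100 kb and 163 (8.68%) beyond 100 kb. The median distance was 16.8 kb, with quartiles of 3.77 and 53.5 kb. Among the 6702 regions with the same later calls and an E10.5 call the median was 0.637 kb and 56.2% were near a boundary. For the mirror set these were 0.273 kb and 66.3%. A transcription start lay in 5.43% of the 1877 regions, against 29.6% of the 12685 other regions called by 3 to 6 lists and 55.8% of the mirror set. Over all merged regions the boundary share was 14.6% and the median distance 16.1 kb, close to the values of the set.

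**Figure D2:**
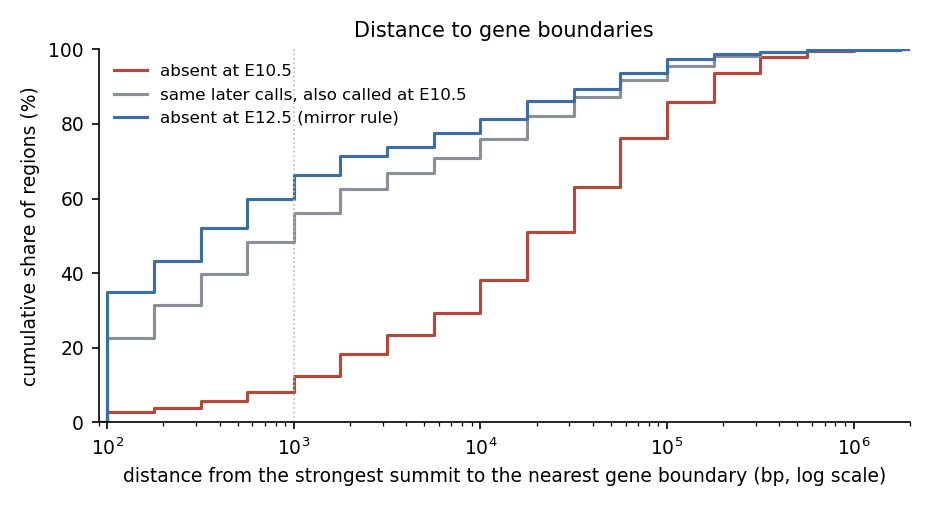
Cumulative share of regions (y axis, percent) by distance from the strongest summit to the nearest boundary of a protein-coding gene (x axis, bp, log scale), for the regions absent at E10.5, those with the same later calls and an E10.5 call, and the mirror rule; the dotted line marks 1 kb. The curve of the regions absent at E10.5 runs below the others, with 12.6% of regions within 1 kb against 56.2% and 66.3%.

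Within each list, the peaks of the set were compared with those of other regions called by 3 to 6 lists. The number of calling lists was not matched within that range. In the set, 1459 regions (77.7%) were called by 1 E11.5 and 2 E12.5 lists, the fewest that the rule allows. The comparison thus cannot separate absence at E10.5 from being called by few lists. The share near a boundary was 69.6%, 55% and 11.9% for the set in E11.5 samples 1, 2 and 3, against 67.6%, 64.4% and 47.2% for the others, and 9.38%, 12.8% and 18.4% in E12.5 samples 1, 2 and 3, against 20.8%, 28.2% and 31.5%. The set was lower in 5 of 6 lists and higher in E11.5 sample 1, which called only 46 of its regions. The mean difference of -13.8 percentage points (SD 12.2, n = 6 lists) did not pass an exact sign-flip permutation test over lists (two-sided p = 0.0625, Benjamini-Hochberg adjusted over 3 measures p = 0.0938). The median distance was higher in 6 of 6 lists, by 0.44 on the log10 scale on average (exact p = 0.0313, the smallest that 6 lists can give, adjusted p = 0.0938). The share inside genes was higher in 5 of 6 lists, by 5.97 percentage points (exact p = 0.0938, adjusted p = 0.0938), so no measure passed after adjustment.

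Against the regions with the same later calls and an E10.5 call, a comparison added after the data were seen, the boundary share was lower in 6 of 6 lists, with a mean difference of -34.7 percentage points (SD 13.6, exact p = 0.0313). Up to 9 lists could call those regions and at most 6 the set, and the median widths were 833 and 361 bp. The number of calling lists was not matched, so this comparison cannot separate an E10.5 call from being called widely. The share of peaks in regions with a transcription start, another added measure, differed by -16.9 points from that of the other regions called by 3 to 6 lists (SD 8.54, lower in 6 of 6 lists, exact p = 0.0313). The lists share members: E11.5 sample 3 called 1828 and E12.5 sample 2 called 1790 of the 1877 regions. The tests treat the lists as independent although their sets of regions overlap, so the p-values can be too small. The boundary difference from the other regions called by 3 to 6 lists was 13.2 points without E11.5 sample 3, higher in the set (exact p = 0.25, 5 lists), and -6.01 points without E12.5 sample 1 (exact p = 0.4375). When the set was compared with all other peaks of each list in place of these regions, with all 6 lists, it was -4.32 points (exact p = 0.375).

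**Figure D3:**
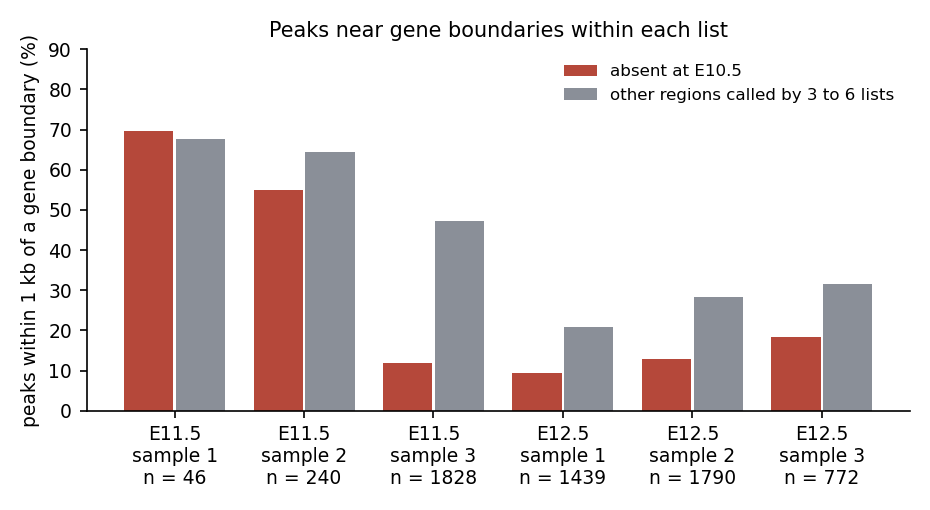
Share of peaks within 1 kb of a gene boundary (y axis, percent) in each E11.5 and E12.5 list, for regions absent at E10.5 (left bars, their number below) and other regions called by 3 to 6 lists (right bars). The left bar is lower in every list except E11.5 sample 1, and E11.5 sample 3 shows the widest gap, 11.9% against 47.2%.

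Position went with the number of E11.5 lists. Of the 200 regions that 2 or 3 E11.5 lists called, 56.5% lay near a boundary and 38% held a transcription start, with a median width of 520.5 bp. Of the 1677 regions that a single E11.5 list called, 7.33% lay near a boundary, with a median width of 349 bp. The boundary share differed little with the number of E12.5 lists, at 13.8% for 3 E12.5 lists and 12.4% for 2. Their median widths were 443 and 347 bp. The median distance was 11.5 kb for 3 E12.5 lists, against 16.8 kb over the whole set. E11.5 samples 1 and 2, the shorter lists, also had high boundary shares among the other regions (67.6% and 64.4%), and the part of list length in the contrast was not tested.

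In the lists that called them, peaks of the set were of middle rank. The fold enrichment over background at the summit, the authors' value, was ranked within each list so that 100 is the highest. The median percentile of the set was 22.3, 44.1 and 41.7 in E11.5 samples 1, 2 and 3, where that of the other regions called by 3 to 6 lists was 44.9, 65.5 and 70.4. In E12.5 samples 1, 2 and 3 it was 62.5, 65.1 and 43.8, where the others had 58.7, 67.2 and 56.8. All 3 E11.5 lists thus ranked the set well below other recurrent regions, as did E12.5 sample 3, while E12.5 samples 1 and 2 placed both close together. The highest 10% of peaks held 17.8% of the set's peaks in E12.5 sample 1 and 16.5% in sample 2, 5.31% in sample 3, and 1.31% to 4.35% in the E11.5 lists. The median -log10 q was 2.79 to 3.73 in the E12.5 lists and 3.26 to 6.26 in the E11.5 lists, above the lowest deposited value of 1.3. The regions had a median width of 361 bp (quartiles 272 and 477 bp, range 127 to 1290 bp), against 555 bp for other regions called by 3 to 6 lists.

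**Figure D4:**
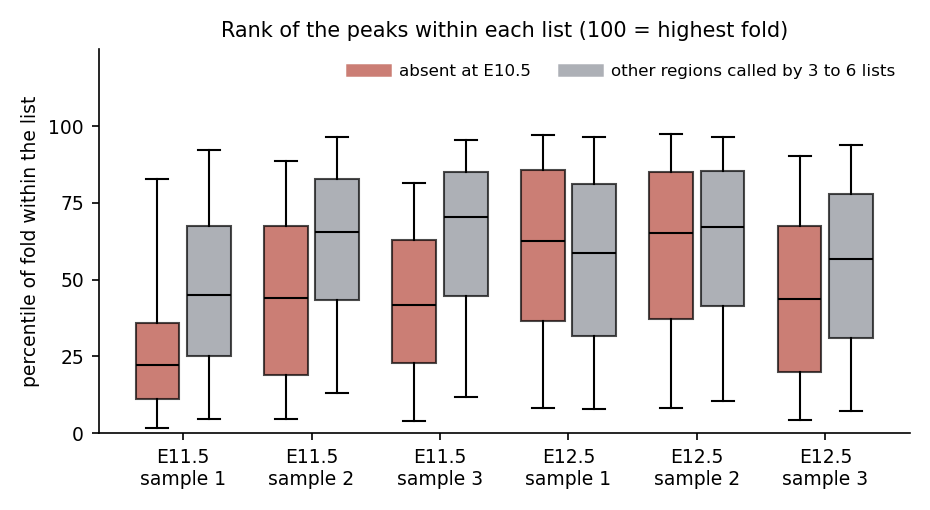
Percentile of the fold within its list (y axis, 100 is the highest) for peaks of regions absent at E10.5 (left boxes) and of other regions called by 3 to 6 lists (right boxes); boxes span the quartiles with the median as a line, and whiskers the 5th to 95th percentile. In the E11.5 lists the left medians are 22.3 to 44.1, below the right medians of 44.9 to 70.4, in E12.5 sample 3 they are 43.8 and 56.8, and in E12.5 samples 1 and 2 the medians lie within 4 percentile points of each other.

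The region inside Tph2, which encodes the enzyme of serotonin synthesis in neurons, ranked high in every list that called it. It lies on chromosome 10 at 115170829 to 115171242 (mm10), 13.9 kb from a gene boundary. Its fold was 3.93 in E11.5 sample 3, and 4.81, 3.92 and 3.65 in E12.5 samples 1, 2 and 3, at the percentiles 78.2, 95.2, 99.3 and 93.7 of those lists. All 3 E12.5 lists thus placed it in their highest 10%. E11.5 samples 1 and 2 and all E10.5 lists had no peak there. It was 1 of 9 regions assigned to Tph2, and the nearest region called at E10.5 lay 79.8 kb away. It left the set without E11.5 sample 3 and with lists of equal length. Of 8 neuronal and glial markers, 4, 1 and 1 had a peak at a boundary in the E10.5 lists, 1, 5 and 5 in the E11.5 lists and 0, 3 and 1 in the E12.5 lists, and the part of neural cells in this region was not tested.

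The imprinted Gnas gene, which encodes the stimulatory G protein alpha subunit, held 2 regions of the set among 25 assigned to it. That on chromosome 2 at 174330454 to 174330884, 16.0 kb from a boundary, had a fold of 4.73 and 3.66 in E11.5 samples 2 and 3 and of 4.02, 3.02 and 3.38 in E12.5 samples 1, 2 and 3. Its percentile was 80.0, 91.1 and 87.2 in the E12.5 lists and 44.1 and 72.3 in the E11.5 lists. The second, on chromosome 2 at 174339619 to 174340000, 6996 bp from a boundary, was called by E11.5 sample 3 (fold 3.25) and E12.5 samples 1 and 2 (3.64 and 3.06). The first region lay directly beside a region called at E10.5, 1 bp away, and that gap of the second was 5.84 kb. The first stayed in the set under 13 of 14 other settings and left-out lists, and left it with lists of equal length.

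The 5 regions that all 6 later lists called lay near Gfod1 (chromosome 13, 43303928 to 43304473, 131 bp from the boundary) and at the Cep131 start (chromosome 11, 120086625 to 120087056). The others lay at the Phpt1 start beside Ajm1 (chromosome 2, 25574604 to 25575145), at the Phf23 start (chromosome 11, 69995447 to 69996520) and inside Fam178b (chromosome 1, 36588472 to 36589012). The Cep131 region had a fold of 5.2, 7.77 and 4.50 in E11.5 samples 1, 2 and 3, and of 2.71, 2.18 and 2.03 in E12.5 samples 1, 2 and 3. Its percentile was 53.1, 83.4 and 84.9 in the E11.5 lists and 3.66, 14.9 and 0.413 in the E12.5 lists. A region called at E10.5 lay 0.411 kb from it, against 6.215 to 30.654 kb for the others of these 5. The Phpt1 region had percentiles of 29.9, 84.4 and 74.5 in the E11.5 lists and 41.5, 1.40 and 0.491 in the E12.5 lists. Both were thus among the weakest peaks of E12.5 sample 3 and of high rank in E11.5 samples 2 and 3. For Phf23 the percentiles were 14.7, 41.9 and 78.1 in the E11.5 lists and 15.8, 24.8 and 38.5 in the E12.5 lists, and for Gfod1 35.4, 56.6 and 81.0 and 43.6, 12.1 and 20.5. The Fam178b region, 26.2 kb from a boundary, had 11.4, 14.3 and 53.0, and 41.6, 10.6 and 9.53.

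The other named regions were called by E11.5 samples 2 and 3 and all E12.5 lists. The Pelp1 promoter region (chromosome 11, 70409815 to 70410250) had a fold of 6.34 and 5.30 at E11.5 and of 3.31, 2.91 and 2.97 in E12.5 samples 1, 2 and 3. That of B4gat1 (chromosome 19, 5038732 to 5039691) had 5.06 and 4.11, and 4.24, 2.58 and 2.93. A region 9.00 kb from Fzd2, a Wnt receptor gene (chromosome 11, 102595358 to 102595822), had 6.87 and 4.64, and 3.24, 2.90 and 2.70; a region called at E10.5 lay 224 bp from it. The last (chromosome 14, 24900778 to 24901152) lies 403.9 kb from the nearest boundary, that of Rps24, and had 5.84 and 4.91, and 3.10, 3.18 and 2.79. Folds of different lists are relative to each list's own background and are not compared between stages.

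The set was spread thinly over genes. Of the 17337 genes with a region, each taken as the nearest boundary within 100 kb, 1447 (8.35%) had 1 or more of the regions: 1297 had 1, 133 had 2 and 17 had 3. None of these genes had more than 3, and 263 regions had no boundary within 100 kb, 100 of them deep inside a long gene and so assigned to none. The first 10 genes by number of regions were Cracdl, Sdk1, Tut7, Ptprn2, Tnrc18, 2900026A02Rik, Mrps18a, Sipa1l1, Abo and Disc1, with 3 each. Sdk1, which encodes a cell adhesion molecule of the immunoglobulin superfamily, had 3 of 40 assigned regions in the set, which lay outside the gene at 44.6 to 86.4 kb, and 1 of them was called by all E12.5 lists. Another 1 lay inside Sdk1, over 100 kb from its boundaries. Tut7, which encodes a terminal uridylyltransferase acting on RNA, had 3 of 18 at 12.3 to 76.0 kb. Ptprn2, a phosphatase-like gene of secretory vesicles, had 3 of 40, of which the 1 at 606 bp from the boundary held a transcription start and was called by all E11.5 lists, and another 1 lay deep inside the gene. Mrps18a, a mitochondrial ribosomal protein gene, had 3 of 8, which lay 28.4 to 37.1 kb away.

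Sipa1l1, a GTPase activator gene of Rap proteins, had 3 of 30 regions in the set, and none was called by E12.5 sample 1. That on chromosome 12 at 82169781 to 82170304 lay 0.278 kb from a region called at E10.5. Disc1, a scaffold protein gene, had 3 of 42, all called by E12.5 samples 1 and 2 and none by sample 3. Abo, the glycosyltransferase gene of the blood group antigens, had 3 of 12, including the region on chromosome 2 at 26826545 to 26826991 at percentile 99.3 of E12.5 sample 2 and 89.7 of sample 1. Tnrc18 had 3 of 13, 2900026A02Rik 3 of 15 and Cracdl 3 of 30. Genes with the same number were ordered by regions called in all E12.5 lists and then by calls, and Gas1 was among the 7 others with 3.

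Genes of pathways and cell types were read from 23 lists with 478 genes, of which 472 were in the annotation. The share of a list's regions that belong to the set is read against 1.59% of all regions and 12.9% of those called by 3 to 6 lists. Of the 23 lists, 11 were above 1.59% and 11 above 12.9%, with a median of 1.49% over the lists. The lists were written with earlier results of these data known, the counts are small and no test was made of them.

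The epithelial list had the highest share of the 23. Of 14 genes, 5 had regions of the set, which numbered 7 of 90 regions (7.78%) and 7 of the 14 that 3 to 6 lists called (50%). Epcam, an epithelial adhesion gene, had regions 52.0 and 32.6 kb away on chromosome 17, both called by E11.5 sample 3 and E12.5 samples 2 and 3. The fold was 2.88, 2.47 and 2.84 at the first and 2.87, 2.56 and 2.75 at the second in these lists. Grhl2, a transcription factor gene of epithelial identity, had a region inside the gene 1.38 kb from its boundary (chromosome 15, 37233934 to 37234397) that E11.5 samples 2 and 3 and all E12.5 lists called, with folds of 3.35, 3.48, 3.75, 2.81 and 3.04. Its second lay 43.0 kb from the boundary. The tight junction genes Cldn3 and Cldn4 had 1 region each, 317 bp and 5.29 kb from their boundaries, and Ovol1, a zinc finger gene of epithelial differentiation, 1 at 13.3 kb. The gap to a region called at E10.5 was 0.245 kb for Cldn3 and 0.999 kb for the first Epcam region. At the list's other regions of the set it was 4.902 to 23.788 kb.

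Of the list's other regions, outside the set, 9, 12 and 6 were called in the E10.5 lists, 2, 5 and 19 in the E11.5 lists, and 14, 38 and 10 in the E12.5 lists. As a share of a list's called regions outside the set these were 0.0592%, 0.0644% and 0.0433% for E10.5, then 0.0367%, 0.0206% and 0.0523% for E11.5, then 0.0586%, 0.0809% and 0.0570% for E12.5. Outside the set the E10.5 and E12.5 shares overlapped, but leaving out the set takes regions only from the later lists. With the set included, the shares were 0.0364%, 0.0244% and 0.0681% for E11.5 and 0.0710%, 0.0923% and 0.0765% for E12.5. Those of E12.5 then all lay above the E10.5 shares, but the rule adds regions only to the later lists. Neither count is free of the rule, and the difference was not tested. The ectoderm had been peeled from these samples. Of the 10 epithelial markers, 0, 2 (Cdh1 and Esrp1) and 0 had a peak within 1 kb of a boundary in E12.5 samples 1, 2 and 3, and 0, 2 (Epcam and Krt8) and 2 (Grhl2 and Esrp1) in E11.5 samples 1, 2 and 3. The part of remaining epithelial cells in these counts was not tested. The 7 regions fell to 1 without E11.5 sample 3 or E12.5 sample 2, to 4 without E12.5 sample 1 or 3, to 4 with an overlap of at least 100 bp, and to 0 with lists of equal length.

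Bone morphogenetic protein (BMP) signalling, in which ligands act through serine/threonine kinase receptors and SMAD proteins, had 8 regions in the set of 197 (4.06%), and 8 of the 32 that 3 to 6 lists called (25%). They lay at 8 of 22 genes. Of the ligand genes, Bmp7 had a region inside the gene on chromosome 2 at 172872850 to 172873233, with a fold of 3.23 in E11.5 sample 3 and 2.96, 2.64 and 2.21 in E12.5 samples 1, 2 and 3. Bmp6 had one inside the gene with 2.79, and 3.51, 3.31 and 2.79 in the same lists, and Bmp4 one 7.66 kb away with 3.52 in E11.5 sample 3 and 2.73 and 2.57 in E12.5 samples 2 and 3. The receptor gene Acvr1 had one 23.3 kb away, inside Upp2, with 3.67, and 3.79, 3.84 and 2.79. The signal transducer Smad5, the inhibitory Smad6, the target Id3 and the secreted antagonist Fst had 1 each, at 14.9, 56.2, 19.2 and 0.43 kb. All but that of Fst, which E11.5 sample 2 called, rested on E11.5 sample 3 as the only E11.5 list. Without that list the BMP count was 1, and without E12.5 samples 1, 2 and 3 it was 5, 2 and 6. It was 0 with lists of equal length and 0 when peaks under a -log10 q of 5 were dropped. The Smad6 region lay 0.118 kb from a region called at E10.5. At the other BMP regions of the set that gap was 1.509 kb (Fst) to 104.422 kb (Bmp7).

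Retinoic acid, a vitamin A derivative that patterns the face, had 5 of 145 regions in the set (3.45%). Cyp26b1, which encodes a retinoic acid degrading enzyme, had 2, at 56.6 and 16.0 kb, both called by E11.5 sample 3 and E12.5 samples 1 and 2. Rdh10, of its synthesis, and the receptors Rarb and Rarg had 1 each. In the hedgehog pathway 6 of 190 regions (3.16%) were in the set. Gas1, a hedgehog co-receptor gene, had 3 of its 18 regions, with 2 of them next to each other on chromosome 13 at 60195424 to 60195691 and 60195814 to 60196189. The second of these had a fold of 4.01 in E11.5 sample 3 and 3.72 and 3.33 in E12.5 samples 1 and 2. Gli2, the transcription factor gene of the pathway, had 2 of 49 and Smo, its signal transducer, 1.

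Most lists of skeletal, dental and mesenchymal genes lay below the overall share, and the palate list lay slightly above it. The osteogenic list had 0 of 131 regions in the set, the mesenchyme list 1 of 122 (Twist2), the odontogenic list 1 of 186, the cell cycle list 1 of 188, the Hox list 1 of 95 and the face patterning list 4 of 405. In the face patterning list Tfap2c, a neural crest factor gene, had 2 regions and Dlx6 and Nr2f2 1 each. The palate list had 4 of 228, with 2 at Foxf1, a forkhead factor gene, 26.9 and 14.7 kb away and 1 each at Tbx3 and Foxc1. FGF had 2 of 225, both at the ligand gene Fgf9, 1 inside the gene called by E12.5 samples 2 and 3 and 1 at 40.7 kb called by E11.5 sample 2. From the Fgf9 region inside the gene, a region called at E10.5 lay 0.161 kb away. TGF-beta had 2 of 189 (Ltbp2 and Tgfbr3), the chondrogenic list 2 of 141 (both Sox6) and Wnt 6 of 402, at the ligand genes Wnt4, Wnt5a and Wnt7b, the receptor genes Fzd2 and Lrp6 and the nuclear effector gene Lef1.

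**Figure D5:**
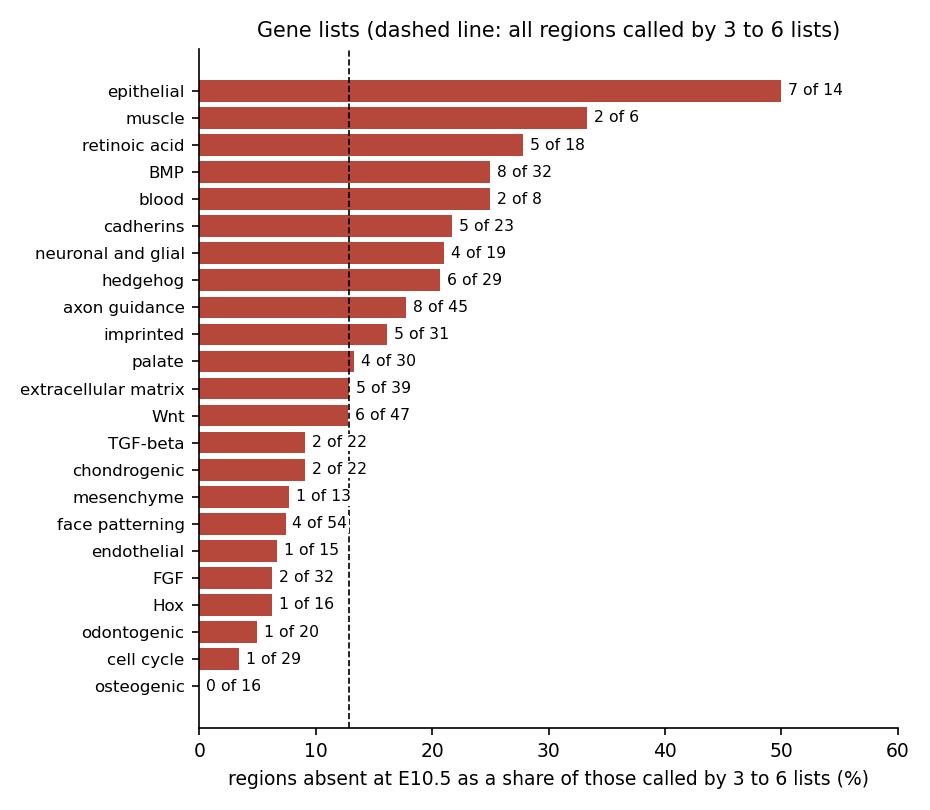
Regions absent at E10.5 as a share of all regions called by 3 to 6 lists (x axis, percent) for each of 23 gene lists (y axis), with the counts beside the bars and the share over all such regions, 12.9%, as a dashed line. The epithelial list (7 of 14) stands highest and the osteogenic list (0 of 16) lowest.

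The remaining lists had 5 of 359 regions in the set for the extracellular matrix, 8 of 360 for axon guidance, 5 of 236 for cadherins and 5 of 218 for imprinted genes. The elastin gene Eln had 2, at 37.3 and 52.7 kb, and the basement membrane collagen gene Col4a1 2, at 24.6 and 49.2 kb. A region called at E10.5 lay 0.219 kb from the second Col4a1 region. The repulsive guidance gene Slit1 had 2 inside the gene, Cdh13, a cadherin gene without the usual membrane span, 2 at 45.2 and 15.4 kb and another 2 deep inside the gene, and Cdh23, a cadherin gene of hair cell links, 2 inside the gene. Ntn4, a netrin gene, had a region at 15.3 kb at percentiles 91.1, 89.7 and 99.2 of E11.5 sample 3 and E12.5 samples 1 and 2. Neuronal and glial genes had 4 of 100 (among them those of Tph2, Npas4 and Tubb3) and muscle genes 2 of 75 (Pax7 and Actc1). Blood genes had 2 of 82 (Cx3cr1 and Runx1) and endothelial genes 1 of 157 (Erg), which lay 0.711 kb from a region called at E10.5. Npas4, an activity-dependent neuronal factor gene, had a region 1.45 kb away called by E11.5 sample 3 and all E12.5 lists, with folds of 3.35, 4.62, 2.90 and 3.12.

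Over chromosomes, the share of merged regions in the set was between 1.01% on chromosome X (15 of 1491) and 1.94% on chromosome 18 (73 of 3768). Of all merged regions 105 (0.0889%) overlapped a microRNA hairpin of the RefSeq table, and 0 of the 1877 did, which at that share cannot be read as a difference.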

How the data were processed

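Per the submitters' processing notes, Bowtie2, deepTools 3.3.1 and MACS2 were used with mm10. The list names in the labels record paired-end input and removal of blacklisted regions, and the runs of a sample share 1 list. Read filters, transposase offset and MACS2 threshold: not given in the sources used here. Deposited by the authors, each list gives each peak's fold over background (a ratio), -log10 p and -log10 q values and summit. They hold no counts, so depth is unknown.

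Lists were merged, scored and tested with Python 3.11.15, NumPy 2.4.6 and pandas 2.3.3. Boundaries came from 21631 protein-coding genes and starts from the promoter windows of GRCm38.p6 (RefSeq), with which mm10 shares coordinates. Exact two-sided sign-flip tests used the 6 later lists (64 sign patterns). Expected numbers came from an additive logit model. It was tried only on simulated calls drawn from an additive model of the same kind. That cannot show whether the model suits these data. Named regions are the 10 of highest mean percentile among the 29 called by all 3 E12.5 and at least 2 E11.5 lists, those of all 6 first. Named genes are the 10 with most members, gene list members with 2 or more, Tph2 and Gnas; others were named after their values were seen. Members and lists were chosen with earlier results of these data known. Nothing says that samples came from separate litters, so p-values measure at most the spread between lists. Because the lists share members, these p-values can be too small. The planned GC test and motif search at all summits were not run, since no genome was used here; promoter windows were chosen in their place after the files were seen.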

Additional observations from a re-analysis of the deposited data

How the results depend on the processing

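The set held 187 regions when peaks under a -log10 q of 5 were dropped, 50 with equal-length lists and 8579 without the E10.5 condition. With 1 list left out it held 240 (without E11.5 sample 3) to 2524 regions. Genes with 3 or more regions, 17 in the report, numbered 11 when peaks under 2 were dropped, 0 under 5, 0 with equal-length lists, 5 with an overlap of at least 100 bp and 2 within 20 kb, and 0 to 27 with 1 list left out. The boundary difference was 3.03 points with equal-length lists, and the distance and gene body differences -0.093 and -5.38, each reversed; the cause was not tested. With 1 list left out they ranged from -17.2 to 13.2, -0.44 to 0.56 and -7.67 to 10.3, reversed only without E11.5 sample 3. The adjusted exact p passed 0.05 without E10.5 sample 1 (-15.7, 0.50 and 6.63), with summit windows (-16.0, 0.51 and 7.36) and with boundaries of 500 bp (-14.2 and 5.53). Added later, it also passed against regions also called at E10.5 (-34.7, 1.11 and 14.7), where the number of calling lists was not matched. For transcription starts (-16.9), also added later, it passed with that measure put in place of the boundary share among the 3 adjusted measures, not added to them. With 5 lists the exact p cannot go below 0.0625. Another window and another comparison set for GC content were not run, for lack of a genome. No paired analysis was possible because replicate numbers could pair samples across stages and no test compares stages; the sign-flip tests pair the set with other regions within each list.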
